A study of Mus musculus with 8 samples.

Results

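A row of 10 neighbouring genes on mouse chromosome 16 was followed through RNA-seq of embryonic dorsal cortex. The row holds Ifnar2, Il10rb, Ifnar1 and Ifngr2, which encode chains of interferon and interleukin receptors, and Tmem50b, Dnajc28, Gart, Son, Donson and Itsn1, which lie next to them. The genes were chosen by name from 23284 gene symbols in the count tables, because Tmem50b, Dnajc28 and Ifngr2 had already been seen to vary together across these libraries. The levels of those 3 genes are therefore given as a description, with no test, and only the other 7 genes were tested. All 10 genes were counted in each library and passed the filter on low counts.

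The study compared 4 libraries from wild-type (WT) mice with 4 libraries labelled ErbB4-/-, from mice that lack the receptor tyrosine kinase ErbB4, to ask which cortical genes depend on it. Both groups were E15.5 embryos labelled C57BL/6, and each library came from cortex freed of meninges and ganglionic eminences. The ErbB4-/- mice carry a transgene driven by a cardiac promoter that restores ErbB4 in the heart, and each line was bred as its own homozygous colony. The labels do not say whether replicates came from separate embryos or litters, so p-values measure the spread between these samples only.

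Type I interferons signal through a receptor made of Ifnar1 and Ifnar2, interferon gamma through Ifngr1 and Ifngr2, and interleukin 10, interleukin 22 and the lambda interferons through receptors that share Il10rb. Ligand binding activates JAK kinases and STAT transcription factors, which switch on interferon-stimulated genes. In the developing brain these pathways are best known from infection and from microglia. The region corresponds to part of the human chromosome that is present in an extra copy in Down syndrome.

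Library totals ran from 28205703 to 48871480 counts. Values are CPM, read counts relative to library size after trimmed-mean normalization (TMM), and fold changes are log2 ratios of ErbB4-/- over WT from edgeR's quasi-likelihood test over 14696 genes, adjusted by Benjamini-Hochberg. Erbb4 itself was at 8.99, 19.9, 25.3 and 19.2 CPM in WT libraries 1 to 4 and at 20.7 to 24.6 CPM in the libraries labelled ErbB4-/-, so its total count did not separate the groups (log2 fold change 0.28 ± 0.226 SE). WT libraries 1, 2 and 3 had Xist at 983 to 1687 CPM and the Y-linked Ddx3y at 0.257 to 0.495 CPM, whereas WT library 4 and the 4 ErbB4-/- libraries had Xist at 2.70 to 3.82 CPM and Ddx3y at 76.4 to 80.9 CPM. A difference between WT libraries 1 to 3 and the ErbB4-/- libraries therefore cannot be told apart from a difference between embryos with and without Y-linked reads. On the first principal component, which held 30.6% of the variance, WT library 1 lay at −38.92 and the other libraries between −6.07 and 15.48. Markers of dorsal cortex were abundant in both groups, with Neurod6 at 977 ± 98.3 CPM in WT and 957 ± 91.1 CPM in ErbB4-/-, and Tbr1 at 427 ± 34.8 and 395 ± 23.0 CPM (SD, n = 4).

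The 10 genes spanned 548 kb, from 91373028 to 91920842 on chromosome 16 of the NCBIM37 (mm9) assembly. The receptor genes lie at one end, all on the plus strand. They are Ifnar2 (91373028 to 91419696), Il10rb (91406409 to 91426074), Ifnar1 (91485483 to 91507686) and Ifngr2 (91547317 to 91565414). Next come Tmem50b (91574748 to 91598045), Dnajc28 (91614502 to 91619271) and Gart (91621431 to 91647197), all on the minus strand. Son (plus strand, 91647751 to 91679466), Donson (minus strand, 91677513 to 91689010) and Itsn1 (plus strand, 91729526 to 91920842) close the row. Ifngr2, Tmem50b and Dnajc28 are thus immediate neighbours within 72.0 kb, and Ifngr2 is transcribed towards the other two. Reads from exon sequence that 2 genes share cannot be assigned to either one, also where the genes lie on opposite strands, because the libraries did not keep the strand. Such shared exon sequence amounted to 569 nt between Ifnar2 and Il10rb, 103 nt between Son and Donson, 287 nt between Donson and Atp5o, and 676 nt between Gart and the noncoding gene Gm15964. Ifngr2, Tmem50b and Dnajc28 shared no exon sequence with an annotated gene.

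The sequences before the start sites of Ifngr2, Tmem50b and Dnajc28 are shown because these are the genes whose levels move together. Each is the 250 bases 5′ of the RefSeq start site, read 5′ to 3′ on the strand of the gene from the RefSeq promoter table (GRCm38.p6) and placed on mm9 by an exact match. Capitals mark the GC box, GGGCGG on either strand, a binding sequence of Sp1-type factors.
Ifngr2, chr16:91547054-91547303, plus strand: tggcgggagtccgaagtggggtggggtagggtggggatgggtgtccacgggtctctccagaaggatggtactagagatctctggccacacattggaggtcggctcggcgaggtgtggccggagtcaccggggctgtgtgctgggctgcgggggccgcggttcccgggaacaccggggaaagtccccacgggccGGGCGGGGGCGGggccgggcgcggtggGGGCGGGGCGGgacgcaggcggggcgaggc
Tmem50b, chr16:91597926-91598175, minus strand: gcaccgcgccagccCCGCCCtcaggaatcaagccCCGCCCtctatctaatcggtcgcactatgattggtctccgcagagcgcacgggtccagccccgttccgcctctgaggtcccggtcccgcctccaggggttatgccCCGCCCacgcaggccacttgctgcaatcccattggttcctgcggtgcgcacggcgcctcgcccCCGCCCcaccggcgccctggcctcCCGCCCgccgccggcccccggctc
Dnajc28, chr16:91619245-91619494, minus strand: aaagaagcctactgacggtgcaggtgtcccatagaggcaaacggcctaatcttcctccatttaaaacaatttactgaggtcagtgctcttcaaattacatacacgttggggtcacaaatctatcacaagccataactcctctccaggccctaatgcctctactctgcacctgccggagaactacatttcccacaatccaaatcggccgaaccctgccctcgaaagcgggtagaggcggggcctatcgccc
In the 300-base RefSeq window, which adds the first 50 transcribed bases, the GC box occurred 4 times in Ifngr2 and 5 times in Tmem50b, with overlapping matches counted, and it was not found in Dnajc28. It was present in 35.7% of 32851 such windows. The Ifngr2 and Tmem50b windows held 31 and 35 CpG dinucleotides and the Dnajc28 window 13, beside a median of 7. The interferon-stimulated response element, searched on both strands as GAAA repeated with any 2 bases between (3.44% of windows), and TATAAA (13.6% of windows) were in none of the 9 genes with a table entry. The STAT-binding element TTCNNNGAA (8.30% of windows) was found in Ifnar2 and Ifnar1, 1 match each, and in no other of the 9.

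Tmem50b encodes a small membrane protein of the early secretory pathway. Its level was 71.2, 84.0, 90.9 and 39.0 CPM in WT libraries 1 to 4, and 37.3, 38.9, 37.7 and 35.3 CPM in the ErbB4-/- libraries. WT libraries 1 to 3 stood above all others, and WT library 4 was level with the ErbB4-/- libraries, at 105% of their mean. The group means were 71.3 ± 23.0 CPM in WT and 37.3 ± 1.51 CPM in ErbB4-/- (SD, n = 4), and the log2 fold change was −0.93 ± 0.198 (SE). The lowest WT value, in library 4, was 0.139 CPM above the highest ErbB4-/- value, so the groups did not overlap, by a narrow margin. In all, 3.34% of the tested genes had groups that did not overlap.

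Dnajc28 encodes a protein with a J domain, the part of a chaperone partner that binds Hsp70. It was at 9.13, 11.97, 14.1 and 4.19 CPM in the WT libraries and at 3.49, 3.56, 4.02 and 4.03 CPM in the ErbB4-/- libraries. The same 3 WT libraries were high, in the same order as for Tmem50b, and WT library 4 was the lowest of its group. These values rest on 256, 373, 541 and 147 reads in WT and on 124 to 172 reads in ErbB4-/-. The exact 95% Poisson interval, which covers counting error only, was 3.54 to 4.92 CPM in WT library 4 and 8.04 to 10.3 CPM in WT library 1. The means were 9.85 ± 4.29 CPM in WT and 3.78 ± 0.291 CPM in ErbB4-/- (SD, n = 4), and the log2 fold change of −1.39 ± 0.288 (SE) was the lowest of the 10 genes.

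Ifngr2, the chain of the interferon gamma receptor that recruits JAK2, was at 90.4, 104, 102 and 55.1 CPM in WT and at 62.3, 63.6, 66.8 and 59.3 CPM in ErbB4-/-. WT libraries 1 to 3 were again the 3 highest, but WT library 4 was the lowest of all 8, at 87.5% of the ErbB4-/- mean, and the groups overlapped. The means were 88.0 ± 22.8 and 63.0 ± 3.10 CPM (SD, n = 4), and the log2 fold change was −0.48 ± 0.158 (SE). On the log2 scale, the gap between the lowest of WT libraries 1 to 3 and the highest of the other 5 libraries was 0.44 for Ifngr2, 0.87 for Tmem50b and 1.11 for Dnajc28.

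**Figure D1:**
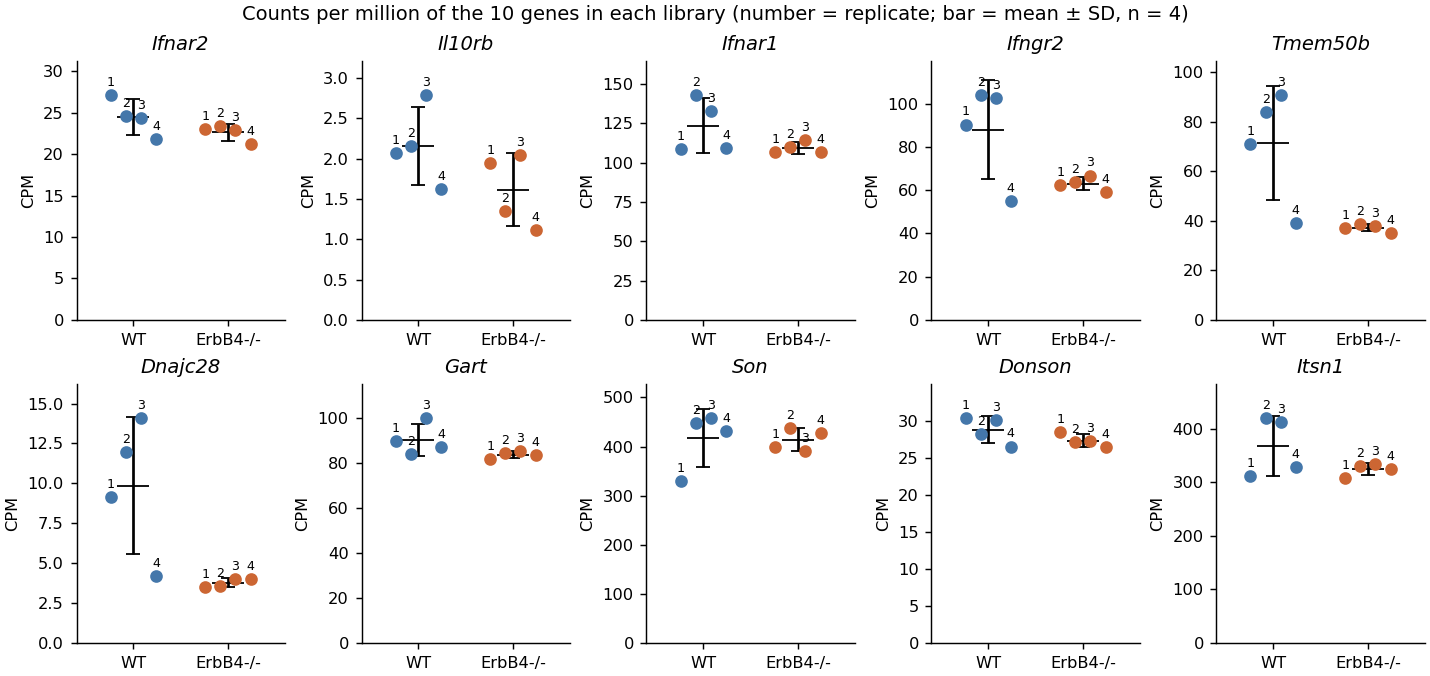
Level of each of the 10 genes in each library, in CPM on axes that start at 0, for WT (blue) and ErbB4-/- (orange). Numbers are replicate numbers, and the horizontal line and bar are the mean and SD of 4 libraries. For Ifngr2, Tmem50b and Dnajc28, WT libraries 1 to 3 lie above WT library 4 and all ErbB4-/- libraries.

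The spread of these 3 genes was on the WT side. Their coefficient of variation was 25.9% (Ifngr2), 32.2% (Tmem50b) and 43.5% (Dnajc28) among WT libraries, where the median of all tested genes was 10.9%. Among ErbB4-/- libraries it was 4.92%, 4.06% and 7.69%, beside a median of 6.45%. The highest WT library exceeded the lowest by 1.89-fold for Ifngr2, 2.33-fold for Tmem50b and 3.37-fold for Dnajc28, and the same ratio among ErbB4-/- libraries was 1.13, 1.10 and 1.16.

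When the genotypes were compared within the 5 libraries with Y-linked reads (WT library 4 against the 4 ErbB4-/- libraries, with the lone WT library assumed to vary like the others), the log2 fold change was −0.07 ± 0.0751 (SE) for Tmem50b, −0.15 ± 0.195 for Dnajc28 and 0.19 ± 0.0739 for Ifngr2. With the log-transformed CPM of Xist as a covariate in all 8 libraries, it was −0.05 ± 0.114, −0.115 ± 0.215 and 0.20 ± 0.105 in the same order. Without WT library 4 the log2 fold changes were −1.14 for Tmem50b, −1.64 for Dnajc28 and −0.65 for Ifngr2. The libraries fall into separate sets for these genes, so no correlation across libraries was computed.

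Among marker lists, the sum of the 9 red blood cell genes was higher in the same libraries. By edgeR's quasi-likelihood test, 0 of the 4 tested genes passed the adjusted threshold (lowest adjusted p 0.74). An unadjusted p under 0.05 was reached by 2 of the 4, Hbb-y (0.00271) and Hba-x (0.00221), where 5.53% of all tested genes did. The 9 genes summed to 44.9 to 56.1 CPM in WT libraries 1 to 3, 31.7 CPM in WT library 4 and 20.7 to 34.8 CPM in ErbB4-/-. The embryonic globins Hbb-y (34.6, 31.6, 26.3 and 13.9 CPM in WT, 3.69 to 18.3 CPM in ErbB4-/-) and Hba-x (6.96, 6.29, 6.83 and 4.87 CPM in WT, 1.6 to 5.08 CPM in ErbB4-/-) were higher in mean in WT, Alas2 was not (11.9 ± 1.11 CPM in WT and 13.8 ± 2.43 CPM in ErbB4-/-, SD, n = 4), and Hba-a1, Hba-a2 and Hbb-b2 were at 0 in every library. Their part in the result was not tested. The summed levels of the other lists overlapped between the genotypes, at 63.2 to 74.8 CPM in WT and 64.3 to 74.9 CPM in ErbB4-/- for 10 microglial genes, 140 to 145 and 140 to 147 CPM for 7 endothelial genes, 63.7 to 78.4 and 61.8 to 79.6 CPM for 8 genes of meninges and pericytes, and 462 to 629 and 454 to 639 CPM for 7 genes of ganglionic eminence and interneurons. In bulk tissue, fewer cells of a type and less RNA per cell cannot be told apart.

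Of the 7 genes that were tested, 0 passed the adjusted threshold of 0.05, where 0.0272% of all tested genes did (4 genes, Wdfy1, Lancl1, Ndst3 and Pign, named after their values were seen), and 0 of 7 had an unadjusted p under 0.05, where 5.53% of all tested genes did. All 7 had a negative log2 fold change, from −0.41 to −0.01, with adjusted p from 0.81 to 0.986 by edgeR's quasi-likelihood test. Across all tested genes 49.2% were higher in ErbB4-/-, and the median was −0.00217. An exact two-sided permutation test of mean log2 CPM over all 70 assignments, whose smallest possible p is 0.0286, gave p from 0.0857 for Gart to 1 for Son (0.321 to 1 after Benjamini-Hochberg adjustment over the 7 genes).

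Of the other receptor chains, none passed the test. Ifnar1, the low-affinity chain of the type I interferon receptor, was at 109, 143, 133 and 109 CPM in WT and at 107, 110, 115 and 107 CPM in ErbB4-/-. WT libraries 2 and 3 were above the rest, and WT libraries 1 and 4 were among the ErbB4-/- values. The log2 fold change was −0.18 ± 0.0865 (SE), with an adjusted p of 0.81 by edgeR's quasi-likelihood test. Ifnar2, the high-affinity chain, was at 27.1, 24.5, 24.4 and 21.8 CPM in WT and at 23.0, 23.4, 22.9 and 21.2 CPM in ErbB4-/- (log2 fold change −0.11 ± 0.0802 SE). The 3 highest values were again WT libraries 1 to 3, but the gap to the next library was 0.06 on the log2 scale. Il10rb was low, at 2.07, 2.15, 2.79 and 1.62 CPM in WT and 1.95, 1.35, 2.05 and 1.11 CPM in ErbB4-/-, from 35 to 107 reads per library. Its order also began with WT libraries 3, 2 and 1, by a gap of 0.01 on the log2 scale, and its log2 fold change was −0.41 ± 0.236 (SE). In the libraries with Y-linked reads alone, the log2 fold changes of these 3 genes were 0.00135 for Ifnar1, 0.06 for Ifnar2 and 0.00411 for Il10rb.

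The genes on the far side of Dnajc28 showed other orders. Gart, a trifunctional enzyme of purine synthesis that lies 2159 bp from Dnajc28, was at 89.8, 83.8, 99.8 and 87.0 CPM in WT and at 81.5, 84.4, 85.2 and 83.3 CPM in ErbB4-/-. WT library 2, high for Tmem50b and Dnajc28, lay among the ErbB4-/- libraries for Gart. The log2 fold change was −0.11 ± 0.0622 (SE; adjusted p 0.81, edgeR's quasi-likelihood test). Son, a nuclear speckle protein needed for splicing, was at 329, 448, 458 and 433 CPM in WT and at 400, 438, 391 and 428 CPM in ErbB4-/-, with WT library 1 the lowest of all. Its log2 fold change was −0.01 ± 0.0937 (SE), and its sign turned when single libraries were left out. Donson, a replication factor, ranged from 26.5 to 30.4 CPM in WT and from 26.4 to 28.4 CPM in ErbB4-/-, a log2 fold change of −0.08 ± 0.0689 (SE).

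Itsn1, an endocytic scaffold that binds dynamin and Cdc42, was at 312, 420, 412 and 328 CPM in WT and at 309, 330, 334 and 325 CPM in ErbB4-/-. As for Ifnar1, WT libraries 2 and 3 stood above the others, and WT libraries 1 and 4 did not. The log2 fold change was −0.18 ± 0.0925 (SE), with an adjusted p of 0.81 by edgeR's quasi-likelihood test. In the libraries with Y-linked reads alone, the log2 fold change was −0.06 for Gart, −0.06 for Son, 0.04 for Donson and −0.02 for Itsn1.

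**Figure D2:**
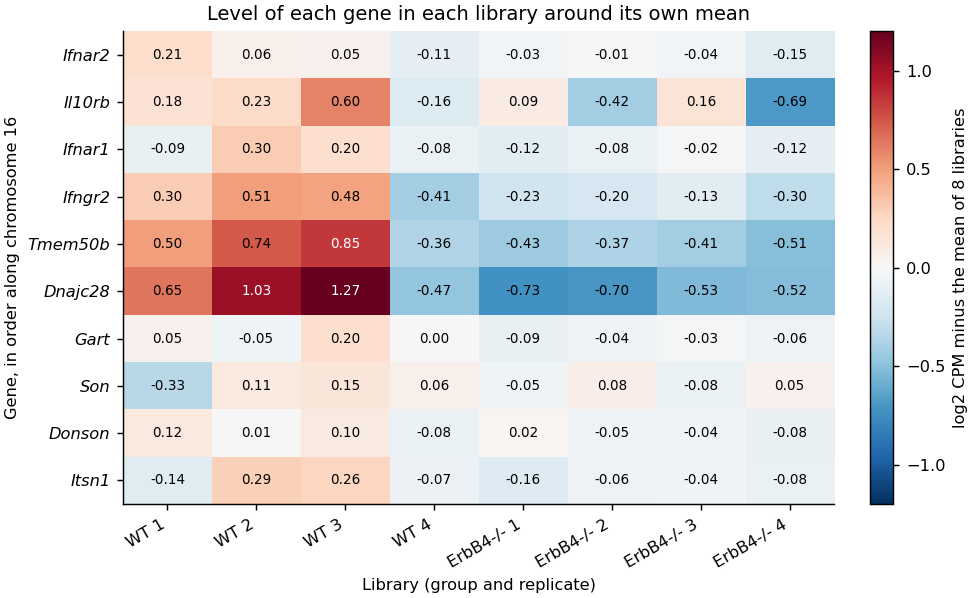
Log2 CPM of each gene minus its mean over the 8 libraries, with genes in chromosome order from top to bottom and libraries from left to right (red above, blue below the mean). Ifngr2, Tmem50b and Dnajc28 lie at 0.30 to 1.27 in each of WT libraries 1 to 3. In single libraries Il10rb reaches 0.60 (WT library 3), Ifnar1 0.30 and Itsn1 0.29 (both WT library 2).

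Levels between genes were compared per kilobase of exon in the ErbB4-/- libraries, where the spread was small. Son was highest at 27.8 ± 1.52 CPM per kb (SD, n = 4), followed by Gart at 20.9 ± 0.401, Ifngr2 at 19.0 ± 0.936, Ifnar1 at 18.6 ± 0.637, Tmem50b at 15.2 ± 0.619, Itsn1 at 14.4 ± 0.506, Donson at 9.63 ± 0.297 and Ifnar2 at 5.80 ± 0.252. Dnajc28 at 1.06 ± 0.0816 and Il10rb at 0.425 ± 0.120 CPM per kb were far lower. The ranges of the 4 libraries overlapped between Ifngr2 and Ifnar1 and between Tmem50b and Itsn1, and between no other neighbours in this order. In WT, the means were 29.1 ± 9.40 CPM per kb for Tmem50b and 26.6 ± 6.88 for Ifngr2. Only these means, not the single libraries, can be placed within the WT range of Son (22.1 to 30.7). The WT libraries of both genes went beyond that range at both ends. The highest was at 37.1 for Tmem50b and 31.4 for Ifngr2, and WT library 4 lay below 22.1 for each. Measured per kilobase of the longest transcript instead, the order of the first 6 genes changed to Son, Ifnar1, Gart, Itsn1, Ifngr2 and Tmem50b, and the last 4 kept their places. With either length Ifnar1 was above Ifnar2, while Ifngr2 was close to Ifnar1 per kilobase of exon and below it per kilobase of the longest transcript (19.4 ± 0.953 CPM per kb in ErbB4-/-, where Ifnar1 was at least 27.2).

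**Figure D3:**
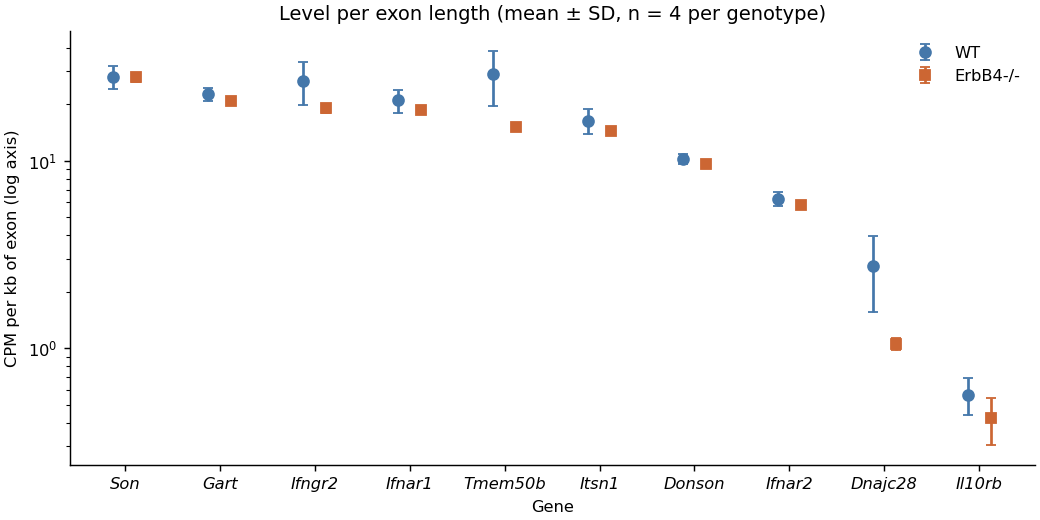
Mean CPM per kilobase of exon of each gene on a log axis, for WT (circles) and ErbB4-/- (squares), with SD bars of 4 libraries. Dnajc28 and Il10rb lie below the other 8 genes in both genotypes, and Tmem50b, Ifngr2 and Dnajc28 have the widest WT bars.

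The genes most like Tmem50b were ranked by the mean absolute difference of centred log2 CPM over the 8 libraries, among all tested genes. The nearest were 5330426P16Rik (0.191), Nsun3 (0.212), Ifngr2 (0.212), Dnajc28 (0.213) and 4931408A02Rik (0.232), all on chromosome 16, and then 1810014F10Rik, Eif2s3x, 1700063D05Rik, Apobr and G530011O06Rik. Of these 10 genes, 5 lay on chromosome 16, Ifngr2 and Dnajc28 included, and 2 on the X chromosome, while 1700063D05Rik had no annotated position. Among all tested genes with a position, 3.11% lay on chromosome 16 and 3.7% on the X chromosome. Nothing is read from these counts because the same values chose the genes. 5330426P16Rik (from 50719410) and Nsun3, an RNA methyltransferase gene (from 62732270), are far from the cluster, and 4931408A02Rik (from 90826964) is close to it. 5330426P16Rik was at 10.2, 17.8, 21.1 and 9.23 CPM in WT and at 7.79 to 11.3 CPM in ErbB4-/-. Unlike for Tmem50b, WT library 1 lay within the ErbB4-/- range. Of the other cluster genes, Il10rb ranked 46, Ifnar1 468, Itsn1 493, Ifnar2 924, Donson 1981, Gart 2327 and Son 8739 in likeness to Tmem50b.

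For Dnajc28 the nearest gene was Tmem50b (0.213), followed at a distance by 5330426P16Rik (0.359), Scgn (0.368), Gm16677 (0.381) and Samd3 (0.399). For Ifngr2 the nearest were Eif2s3x (0.0982), 1700019G17Rik (0.116), Jam2 (0.124), Gltp (0.129) and Cbr1 (0.138). The ranks were not mutual, since Ifngr2 ranked 12 for Dnajc28, whereas for Ifngr2 Tmem50b ranked 84 and Dnajc28 12454, at differences of 0.212 and 0.414. The measure is not scaled, so genes high in the same libraries by different amounts lie far apart. In WT libraries 1 to 3 the centred values were 0.645, 1.03 and 1.27 for Dnajc28, and 0.302, 0.506 and 0.483 for Ifngr2. Eif2s3x, an X-linked translation initiation factor gene known to escape X inactivation, was at 25.5, 25.4, 27.2 and 17.5 CPM in WT and at 17.2 to 19.0 CPM in ErbB4-/-, so that it too was high in the 3 libraries with Xist. Jam2, a junctional adhesion molecule gene on chromosome 16 (from 84774368), was at 31.9, 36.4, 42.9 and 24.6 CPM in WT and at 26.0 to 28.5 CPM in ErbB4-/-. These ranks describe 8 libraries that share the same split, and the genes were ranked on the values that chose the 3 genes.

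Around the cluster, 38 further genes of chromosome 16 were listed, of which 32 were tested. In ErbB4-/-, 18 were higher and 14 lower, with a median log2 fold change of 0.02, and 0 passed the adjusted threshold. An unadjusted p under 0.05 was reached by 5 of the 32 (5.53% of all tested genes), and the groups did not overlap for 4 of the 32 (Atp5o, Cbr1, Slc5a3 and Ttc3; 3.34% of all tested genes). Atp5o, a subunit of the mitochondrial ATP synthase whose annotated span on the minus strand overlaps Donson and covers Itsn1, was at 178, 137, 143 and 125 CPM in WT and at 115 to 124 CPM in ErbB4-/- (log2 fold change −0.30 ± 0.0931 SE). Cbr1, a carbonyl reductase, was at 85.1, 77.9, 73.4 and 59.7 CPM in WT and at 55.9 to 58.1 CPM in ErbB4-/- (−0.38 ± 0.0925). For both genes WT library 4 was the lowest WT library and closest to ErbB4-/-. 4931408A02Rik was at 4.17, 3.82, 3.28 and 2.28 CPM in WT and at 2.01 to 2.41 CPM in ErbB4-/- (−0.57 ± 0.188), with the same 3 libraries high. The adjusted p of these 3 genes was 0.81, 0.71 and 0.81 by edgeR's quasi-likelihood test. Slc5a3, a myo-inositol transporter, was higher in ErbB4-/- (0.22 ± 0.0922). Cryzl1, which lies between Donson and Itsn1, had a log2 fold change of 0.07 ± 0.0757, and Olig1 and Mrps6, the nearest tested genes of the list at either end of the cluster, of 0.11 ± 0.132 and 0.01 ± 0.0885. The remaining gene with an unadjusted p under 0.05, Clic6, was at 25.9 CPM in ErbB4-/- library 3 and at 0.499 to 3.00 CPM elsewhere, and is named after its values were seen.

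**Figure D4:**
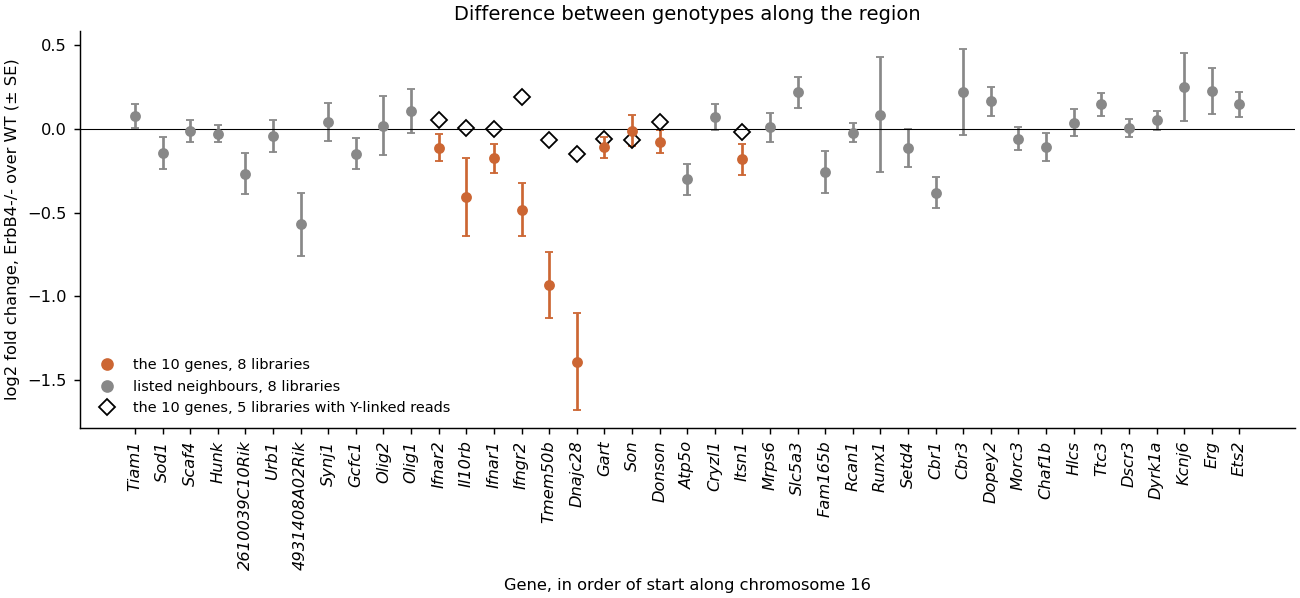
Log2 fold change of ErbB4-/- over WT with its SE for the 10 genes (orange) and the tested neighbours (grey), in order along chromosome 16 and not to scale, with Clic6 left out because 1 library sets its value. Open diamonds give the 10 genes in the 5 libraries with Y-linked reads, where all lie between −0.15 and 0.19.

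The partners of the receptors showed no called gene. Of 14 ligands listed, 13 were in the tables, 11 of them with 0 reads in every library, including Ifnb1, Ifng and Il10, and the other two, Ifnk and Il19, with at most 1 and 3 reads in any library, so none could be tested (3 reads correspond to 0.0609 to 0.107 CPM). Of 7 other receptor genes of the interferon and interleukin 10 families, 5 were tested, 2 higher and 3 lower in ErbB4-/-. Ifngr1, the partner chain of Ifngr2, was at 7.99 ± 0.527 CPM in WT and 8.07 ± 0.756 CPM in ErbB4-/- (SD, n = 4), and its log2 fold change was 0.01 ± 0.102 (SE). Il20rb was at 1.23 ± 0.250 and 0.912 ± 0.296 CPM.

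Downstream of the receptors, 20 of 21 JAK-STAT genes were tested, 7 higher and 13 lower, with a median log2 fold change of −0.02 and 0 with an unadjusted p under 0.05. Jak2, the kinase that binds Ifngr2, was at 127 ± 7.0 CPM in WT and 135 ± 7.47 CPM in ErbB4-/- (SD, n = 4), and the phosphatase gene Ptpn11 had a log2 fold change of −0.00028 ± 0.0545 (SE). Of 40 interferon-stimulated genes, 26 were tested, 16 higher and 10 lower, with a median of 0.06 and again 0 with an unadjusted p under 0.05. The most abundant were the RNA-editing enzyme gene Adar, at 151 ± 11.8 CPM in WT and 161 ± 4.35 CPM in ErbB4-/-, and the nucleotide hydrolase gene Samhd1, at 35.2 ± 1.01 and 33.7 ± 2.02 CPM.

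The partners of the other genes were likewise not called. Of 13 purine synthesis genes with Gart, 4 were higher and 9 lower (median −0.04), with Paics at 221 ± 22.3 CPM in WT and 206 ± 8.31 CPM in ErbB4-/- and Adss at 113 ± 5.03 and 116 ± 1.90 CPM (SD, n = 4). Of 15 splicing partners of Son, 2 were higher and 13 lower (median −0.09), with Snrnp70, a U1 snRNP protein gene, the sole member with an unadjusted p under 0.05, at 305 ± 28.4 CPM in WT and 272 ± 10.4 CPM in ErbB4-/- (adjusted p 0.81, edgeR's quasi-likelihood test). Of 21 endocytic partners of Itsn1, 11 were higher and 10 lower (median 0.00622), and the most abundant, Cdc42 and Ap2b1, had log2 fold changes of −4.47e-05 and 0.06. Of 23 J-domain genes tested with Dnajc28, 9 were higher and 14 lower (median −0.05), and Dnajc6, the neuronal auxilin that uncoats clathrin vesicles, was at 114 ± 7.91 CPM in WT and 132 ± 7.5 CPM in ErbB4-/-, without overlap (unadjusted p 0.00659, adjusted p 0.81, edgeR's quasi-likelihood test). Tmem50a, the paralog of Tmem50b, was at 71.9 ± 9.38 CPM in WT and 68.5 ± 1.89 CPM in ErbB4-/-, a log2 fold change of −0.07 ± 0.0837 (SE). Beside these medians stands that of all tested genes, −0.00217.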

How the data were processed

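RNA-seq of dorsal cortex was available as 8 tables, 4 WT and 4 ErbB4-/-. The authors prepared polyA-selected, unstranded libraries, aligned the single-end reads with HISAT against mm9, and deposited raw read counts per gene symbol from HTSeq-count. Versions and annotation are not given in the sources used here. The deposited DESeq2 table holds the authors' own comparison and was not used.

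From the counts, edgeR 4.0.16 in R 4.3.3 (TMM, glmQLFit and glmQLFTest, with Benjamini-Hochberg adjustment at 0.05, after filterByExpr at its minimum of 10 reads in enough libraries and 15 in total) compared genotypes, taken from the sample titles. Log2 CPM had a prior count of 2. Depth was 28205703 to 48871480 counts, and genes with few reads, such as Il10rb, have wide errors. Positions and exon lengths came from GENCODE for NCBIM37. Motifs were searched in 300-base RefSeq windows. Older symbols were matched through RefSeq synonyms.

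The members and lists were chosen with earlier results of these data known. The genes named are the members, in each list those with an unadjusted p under 0.05 (at most 4) or else the 2 most abundant, the 10 genes nearest Tmem50b and the 5 nearest Dnajc28 and Ifngr2, Erbb4, Xist, Ddx3y and the adjoining neighbours. Alternatives were DESeq2 1.42.0, limma-voom (limma 3.58.1), relative log expression, library totals alone, no low-count filter, a filter at a mean of 50 counts, a block for replicate number, a covariate for Xist, only libraries with Y-linked reads, a prior count of 0.5, the longest transcript as gene length, and each library left out. Steps were tested on simulated data.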

Additional observations from a re-analysis of the deposited data

How the results depend on the processing

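Of the 7 tested genes, 0 were called under each alternative run, DESeq2 and limma-voom included, and their adjusted p stayed between 0.528 and 1 over the alternatives. The number of genes called among all tested was 24 with DESeq2 and 1 (Wdfy1) with relative log expression, with Xist as a covariate and with only the libraries with Y-linked reads, and leaving out each library in turn gave 1 to 13. The highest count, 13, was without WT library 4, where genotype and Y-linked reads coincide, and it holds Xist, Ddx3y, Eif2s3y, Kdm5d, Uty and Eif2s3x. It also holds Tmem50b, Dnajc28 and Ifngr2, and the DESeq2 count holds Dnajc28 and Xist. As Tmem50b, Dnajc28 and Ifngr2 were chosen on these values, nothing is read from their calls. Among the neighbours, leaving out each library gave 0 to 1 called, the 1 being Cbr1 without WT library 4 (log2 fold change −0.47, adjusted p 0.0385, edgeR's quasi-likelihood test). Of the red blood cell genes, Hba-x was called without ErbB4-/- library 4 (log2 fold change −1.71, adjusted p 0.0351, edgeR's quasi-likelihood test).

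With Xist as a covariate the log2 fold changes of Ifnar2, Il10rb, Ifnar1, Donson and Itsn1 turned to 0.044, 0.00111, 0.0205, 0.0375 and 0.00961, and with only the libraries with Y-linked reads those of Ifnar2, Il10rb, Ifnar1 and Donson turned to 0.055, 0.00411, 0.00135 and 0.0437. When each library was left out, the log2 fold change ranged from −0.165 to −0.0591 for Ifnar2, −0.534 to −0.253 for Il10rb, −0.231 to −0.0976 for Ifnar1, −0.142 to −0.055 for Gart, −0.113 to −0.0491 for Donson and −0.253 to −0.111 for Itsn1. That of Son ranged from −0.107 to 0.0392, and the difference of its mean log2 CPM (0.0015 over all libraries) from −0.108 to 0.0511. The cause was not tested. Without WT library 4 the difference of Ifnar2 was −0.17, and without WT library 2 that of Gart was −0.14, each at the smallest p the exact permutation test allows (0.0286).

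With the replicate number as a block, 1 gene was called and the log2 fold change of Son was 0.00119. The correlation of deviations between libraries of the same number was 0.0236 to 0.135, so the numbers were not taken to pair the libraries.

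Across these choices the WT spread of the 3 genes that vary together, and the single WT library with Y-linked reads, limit what the genotype comparison can show. Il10rb and Dnajc28 are also limited by depth.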
